A study of Mus musculus with 23 samples.

Results

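The 38 genes described here were chosen by symbol because their products take up glucose, break it down to lactate, or store and release it as glycogen. The list holds 3 glucose transporters, 7 glycolytic genes whose products are the forms typical of muscle, 15 glycolytic genes used by most tissues or by muscle and others, and 13 glycogen genes. A probe set of their own was present for 34 of them (66 probe sets; 18 genes had several), and all 34 passed the filter on low signals, out of 11165 genes tested and 12394 with a probe set. Hk3, Gpi1, Pfkfb1 and Eno1 had no probe set of their own and were not analysed here.

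The RNA came from gastrocnemius, a calf muscle of mixed but mainly fast fibers, of 3 genotypes of mice on days 0, 3 and 4 of a degeneration and regeneration series. Control mice gave 2 arrays on each day. Emerin KO mice, knocked out for a protein of the inner nuclear membrane, gave 2 arrays on day 0 and 3 on each of days 3 and 4, and Lamin A/C KO mice, knocked out for the A-type lamins of the nuclear lamina, gave 3 arrays on each day. Day 0 muscle of control and emerin KO mice was not injected, day 0 muscle of lamin A/C KO mice is described as taken 0 days after injection, and the other groups followed an injection by 3 or 4 days. The injected agent, the strain and the age of the mice are not given in the sources used here. By their titles the control arrays belong to the lamin A line. The emerin KO arrays are therefore compared here with controls of another line, whose background may differ. The genotype of control day 4 replicate 2 comes from its title alone. The labels do not say that each array is a separate animal, so the p-values measure only the spread between these samples. Both knockouts were compared with the same control arrays, and days 3 and 4 with the same day 0 arrays of their genotype.

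Glucose enters muscle through transporters of the SLC2A family and is phosphorylated by hexokinase. Phosphofructokinase commits it to glycolysis, which ends in pyruvate and lactate. Fast fibers also hold glycogen, which glycogen phosphorylase breaks down after activation by phosphorylase kinase, and glycogen synthase and the branching enzyme rebuild. Several of these steps are carried out by related genes, of which mature muscle uses one form and most other cells another.

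The 250 bases before the start sites of Pgam1, Pgam2 and Slc2a1 are shown because they lie at the start of a general gene that rose, a muscle gene that fell and a transporter that rose (RefSeq, GRCm38.p6). Capitals mark matches on either strand to CANNTG, the E-box core, to ACGTG, and to GCGTG, the cores of the hypoxia response element (where ACGTG is part of CACGTG, it overlaps CANNTG). The stretches are chr19:41911621-41911870 on the plus strand for Pgam1, chr11:5803797-5804046 on the minus strand for Pgam2 and chr4:119108495-119108744 on the plus strand for Slc2a1.
Pgam1: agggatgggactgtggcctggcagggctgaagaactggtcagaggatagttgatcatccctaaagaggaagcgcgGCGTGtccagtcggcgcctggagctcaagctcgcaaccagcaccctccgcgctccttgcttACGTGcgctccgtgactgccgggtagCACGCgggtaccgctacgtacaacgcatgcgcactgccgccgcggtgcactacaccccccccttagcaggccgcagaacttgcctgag
Pgam2: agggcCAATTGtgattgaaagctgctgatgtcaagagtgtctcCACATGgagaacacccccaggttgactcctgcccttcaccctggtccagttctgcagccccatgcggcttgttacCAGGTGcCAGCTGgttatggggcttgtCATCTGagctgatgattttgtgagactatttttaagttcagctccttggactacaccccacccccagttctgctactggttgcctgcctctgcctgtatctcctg
Slc2a1: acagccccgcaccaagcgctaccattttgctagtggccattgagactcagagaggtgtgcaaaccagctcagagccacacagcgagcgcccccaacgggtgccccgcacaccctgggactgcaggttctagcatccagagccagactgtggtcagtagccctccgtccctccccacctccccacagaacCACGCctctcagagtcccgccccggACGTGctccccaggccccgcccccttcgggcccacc
The Pgam1 stretch held ACGTG at 1 place, GCGTG at 2 places and no CANNTG, and the Slc2a1 stretch held ACGTG and GCGTG at 1 place each. The Pgam2 stretch held CANNTG at 5 places and neither of the other motifs. Over the 43 promoters listed for 32 of the genes, ACGTG or GCGTG was present in 76.7%, against 52.2% of the 11430 promoters of genes tested and 38.6% of all 32851 promoters of that length. ACGTG alone was present in 46.5% of the members' promoters and 20.4% of those of the genes tested, and 3 or more CANNTG in 6 of the 43 and 8.22%. The median GC content was 60.0% and 58.8%. Members lower on day 3 in control had 30 promoters and those higher had 9. Of these, 13.3% and 22.2% held 3 or more CANNTG, 46.7% and 55.6% held ACGTG, and 70.0% and 88.9% held ACGTG or GCGTG. The E-box contrast of the printed stretches was thus not seen over the members. Promoters of 1 gene can overlap, so these shares are a description of letters and not of binding.

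All arrays had the same deposited trimmed mean, and precision is limited by how many arrays there are. Of the targeted genes, Emd gave a signal of 153 to 465 on the emerin KO arrays and 587 to 830 on the control arrays. Lmna gave 53.0 to 109 on the lamin A/C KO arrays and 857 to 4119 on the control arrays, so neither gene's arrays overlapped. The ratio of the 3' to the 5' Gapdh control probe set, a sign of RNA quality, was 0.822 to 1.64 over the control and lamin A/C KO groups (15 arrays) and 0.914 to 1.34 on the emerin KO arrays of day 0. It was 3.62 to 6.09 on the emerin KO arrays of day 3 and 1.40 to 5.30 on those of day 4, so comparisons that use these arrays differ in RNA quality as well as in genotype or day. The defining genes of mature fast fibers, 12 of 12 measured, had a summed signal of 253821 to 329997 on day 0, and all 12 fell to day 3 in each genotype. The 12 macrophage genes summed to 5969 to 10456 on day 0 and to 47223 to 55226 on day 3. The part of these cell changes in the results below was not tested.

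Most of the genes fell by day 3 and a minority rose. In control muscle 22 of 34 fell and 9 rose, or 64.7% and 26.5%, where 14.2% of all genes tested fell and 20.1% rose (adjusted p under 0.05 in a limma fit of all genes). Emerin KO muscle had 23 lower and 7 higher, against 22.2% and 23.9% of all genes, and lamin A/C KO muscle 23 lower and 8 higher, against 19.6% and 23.4%. The share of members that fell was therefore above the background in each genotype, and the share that rose was close to it. The median change of the members was -1.20, -1.63 and -1.40 on the log2(signal + 32) scale in control, emerin KO and lamin A/C KO, beside 0.085, -0.08 and -0.08 over all genes tested. In whole muscle, fewer fibers and less RNA per fiber cannot be told apart.

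The same 22 genes were lower in all 3 genotypes on day 3 and again on day 4, and 7 were higher in all 3 on day 3: Hk1, Pfkl, Pfkp, Pgam1, Pygb, Pygl and Slc2a1. With the Gapdh ratio as a covariate the emerin KO calls on day 3 were 21 lower and 3 higher, and Slc2a1, Pfkl, Pfkp and Pygl were among those lost. The ratio did not overlap between the emerin KO arrays of day 0 and day 3, so that fit cannot cleanly separate ratio from day. Day 4 gave 22 lower and 8 higher in control (14.3% and 19.5% of all genes), 22 and 8 in emerin KO (20.8% and 23.5%) and 22 and 7 in lamin A/C KO (18.2% and 21%). Of the 7 genes higher in all genotypes on day 3, Slc2a1 was the one not higher in all on day 4. By role, all 6 muscle forms of glycolytic genes fell in each genotype on both days, with a median of -2.10 in control on day 3, and 9 of 13 glycogen genes fell in control on day 3, with a median of -2.09. The 12 other glycolytic genes were split, with 4 higher and 6 lower in each genotype.

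**Figure D1:**
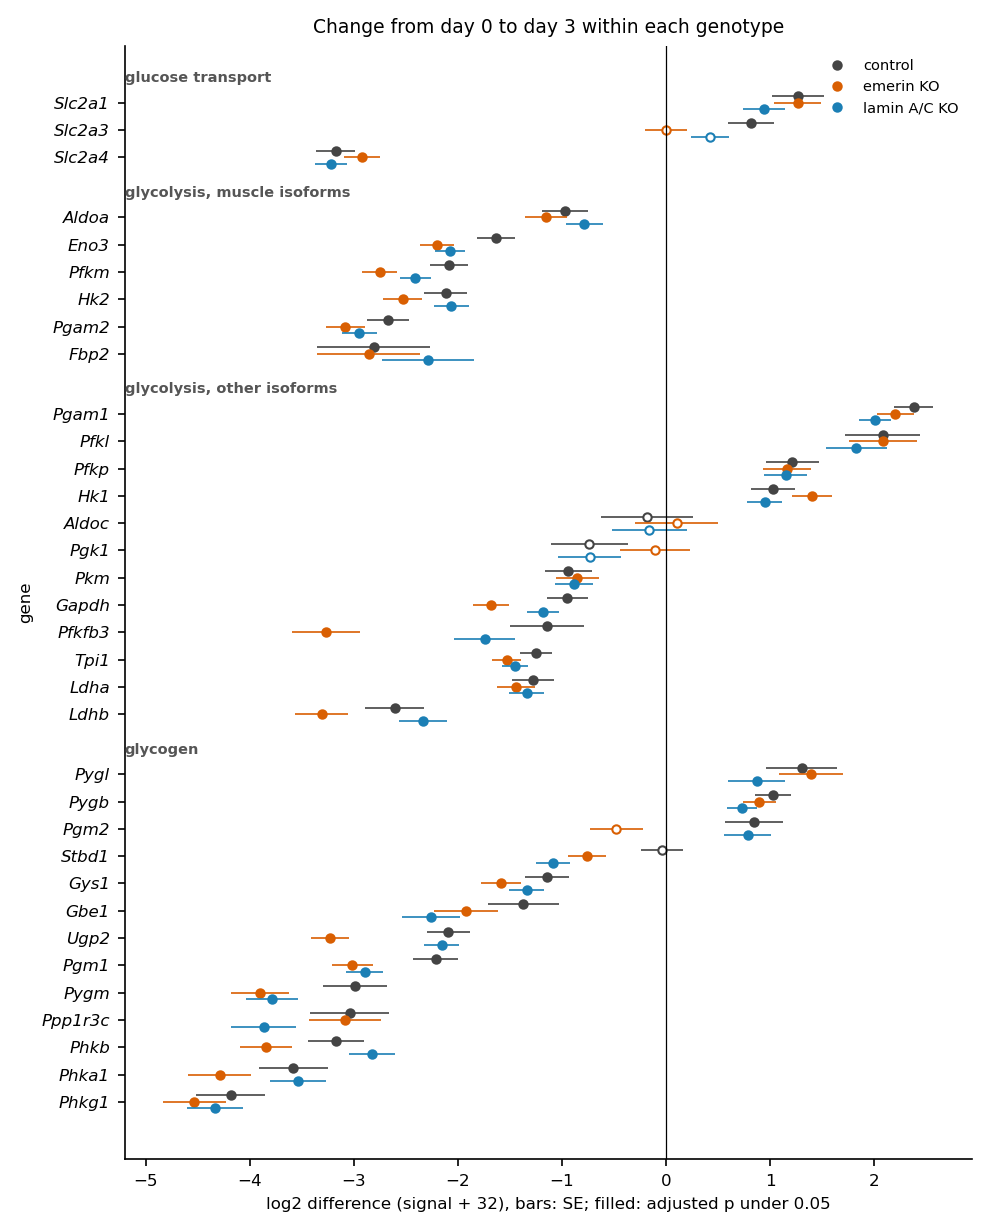
Change from day 0 to day 3 of the 34 genes in control, emerin KO and lamin A/C KO muscle, as a log2 difference of signal + 32, with bars of 1 SE and filled points where the adjusted p was under 0.05. The 6 muscle forms of glycolytic genes lie left of 0 in each genotype, while Pgam1 lies at 2.38 in control and Phkg1 at -4.18.

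Glucose transport was divided between a muscle gene that fell and general genes that did not. Slc2a4 encodes GLUT4, the insulin-regulated transporter of muscle and fat. Its signal was 4427 and 4086 on the control arrays of day 0, 379 and 517 on day 3, and 674 and 663 on day 4. The fall was -3.17 ± 0.19 (SE; adjusted p = 5.0e-11) in control on day 3, -2.92 in emerin KO and -3.22 in lamin A/C KO, and every array of days 3 and 4 lay below every array of day 0.

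Slc2a1, which encodes GLUT1, the transporter of most tissues, went the other way. Its control signals were 235 and 285 on day 0, 533 and 834 on day 3, and 579 and 666 on day 4. The rise on day 3 was 1.26 ± 0.25 in control (adjusted p = 0.00035), 1.26 ± 0.23 in emerin KO and 0.94 ± 0.20 in lamin A/C KO. With the Gapdh ratio as a covariate the emerin KO rise was 0.33 and did not pass (adjusted p = 0.51). On day 4 it was 1.16 in control and 1.41 in emerin KO. In lamin A/C KO muscle the day 4 signals of 414, 377 and 479 were still above those of day 0 (291 to 363). The difference of 0.30 did not pass (adjusted p = 0.26), and neither did that from the control response, -0.87 ± 0.32 (adjusted p = 0.46). These values are from the brightest probe set. At another set lamin A/C KO read 419, 305 and 516 on day 0 and 383, 383 and 407 on day 4, which overlapped. Emerin KO at that set read 186 and 409 on day 0 and 342, 411 and 582 on day 3, which overlapped too. At the remaining set lamin A/C KO went from 145, 186 and 168 to 289, 191 and 274 on day 4. Emerin KO there went from 129 and 124 to 207, 286 and 188 on day 3.

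Slc2a3 encodes GLUT3, a transporter of high affinity found in neurons and white blood cells. It rose on day 3 in control muscle, by 0.81 ± 0.22 (adjusted p = 0.0060), from 184 and 197 to 296 and 434, and the call was lost without control day 3 replicate 2 (0.56, adjusted p = 0.13) and with the mean of all its probe sets (0.39, adjusted p = 0.26). In emerin KO muscle the day 0 signals were already 394 and 364, and the changes of 0.00 on day 3 and 0.16 on day 4 did not pass.

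Among glycolytic steps served by several genes, the muscle form fell and the general form rose at the first, the third and the eighth reaction. Hk2, the insulin-regulated hexokinase of muscle, read 3759 and 4346 in control on day 0 and 689 and 1193 on day 3. The change was -2.12 ± 0.21, and it was -2.53 in emerin KO and -2.07 in lamin A/C KO. Hk1, the form of most tissues, rose from 585 and 481 to 1110 and 1120 in control, by 1.03 ± 0.21, by 1.40 in emerin KO and by 0.95 in lamin A/C KO. At its other probe set the emerin KO rise was much smaller, from 124 and 126 to 140, 162 and 160. That set went from 108 and 157 to 257 and 390 in control, and from 131, 147 and 111 to 279, 272 and 237 in lamin A/C KO.

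Phosphofructokinase showed the same split over 3 genes. Pfkm, the muscle subunit, went from 16155 and 18012 on day 0 to 3143 and 5080 on day 3 in control, a change of -2.08 ± 0.19. Pfkl, the liver subunit, went from 227 and 286 to 1017 and 1370, a change of 2.08 ± 0.36, and Pfkp, the platelet subunit, from 212 and 186 to 610 and 413, a change of 1.21 ± 0.25. The directions were the same in both knockouts on both days. In emerin KO on day 3 Pfkl rose by 2.09 and Pfkp by 1.16, but with the Gapdh ratio as a covariate they were 0.86 (adjusted p = 0.22) and 0.80 (adjusted p = 0.16). Pfkl in lamin A/C KO rose by 1.83 on day 3 and 1.24 on day 4.

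Phosphoglycerate mutase, whose promoters are shown above, split in the same way. The muscle gene Pgam2 read 20071 and 20877 in control on day 0, 2434 and 4163 on day 3, and 5312 and 5151 on day 4. Its change on day 3 was -2.67 ± 0.20 in control, -3.08 ± 0.19 in emerin KO and -2.95 ± 0.17 in lamin A/C KO. The general gene Pgam1 read 383 and 367 on day 0, 2055 and 2115 on day 3, and 1820 and 1902 on day 4. It rose by 2.38 ± 0.19 in control, 2.20 in emerin KO and 2.01 in lamin A/C KO, the largest rise of the 34 genes on day 3 in control and both knockouts.

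**Figure D2:**
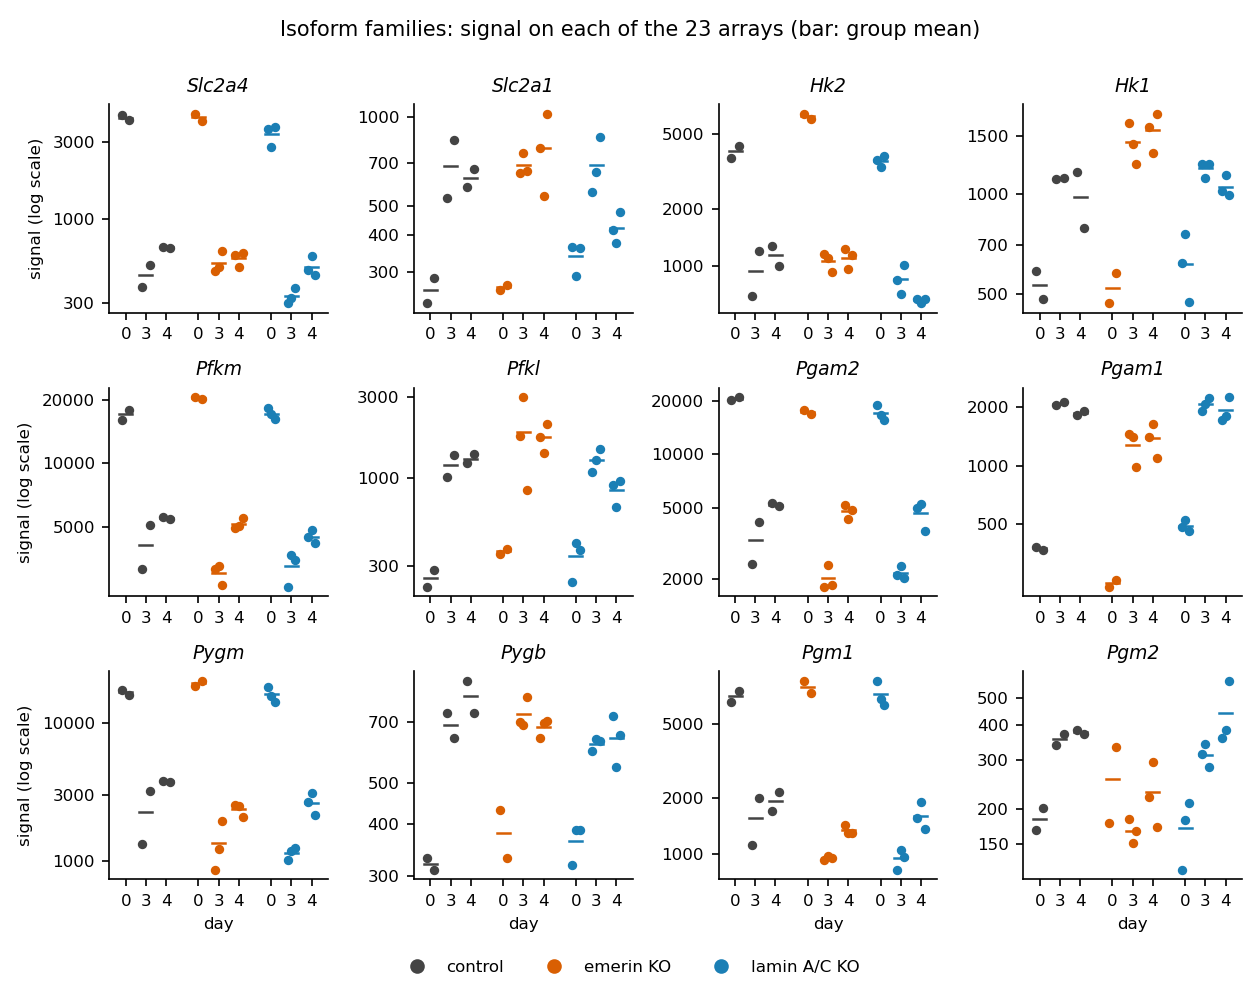
Signal (log axis) of 12 genes on each of the 23 arrays, by day and genotype, with a bar at the group mean; muscle forms (Slc2a4, Hk2, Pfkm, Pgam2, Pygm, Pgm1) stand beside related genes of most tissues. Control Pgam2 goes from 20071 and 20877 on day 0 to 2434 and 4163 on day 3, while Pgam1 goes from 383 and 367 to 2055 and 2115.

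The other muscle forms of glycolytic genes fell too. Aldoa, the muscle aldolase, went from 30128 and 28742 to 13743 and 16411 in control, a change of -0.97 ± 0.22, while Aldoc, the aldolase of brain, did not pass in any comparison and stayed at 57.7 to 286 over the 23 arrays. With quantile normalization the Aldoa change was smaller and lost its call on day 4 in control (-0.37, adjusted p = 0.080) and on day 3 in lamin A/C KO (-0.23, adjusted p = 0.18). These Aldoa values are from its brightest probe set, and its other sets fell further in control by day 3. They went from 28511 and 27642 to 7954 and 12437, from 25598 and 25261 to 5718 and 9986, and from 23191 and 22876 to 5641 and 9027. Eno3, the muscle enolase, whose general partner Eno1 was not measured, changed by -1.63 ± 0.18 in control, -2.20 in emerin KO and -2.08 in lamin A/C KO. Fbp2, the muscle fructose bisphosphatase, which runs against phosphofructokinase, changed by -2.81 ± 0.54 in control, from 996 and 754 to 39.9 and 197. Its fall in emerin KO lost its call with the Gapdh ratio as a covariate (-2.17, adjusted p = 0.078).

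Lactate dehydrogenase fell in both of its main forms. Ldhb, which favours the use of lactate in heart and oxidative fibers, changed by -2.61 ± 0.28 in control on day 3 (4611 and 5440 to 816 and 774), -3.31 in emerin KO and -2.34 in lamin A/C KO. Ldha, which favours its production, changed by -1.28 ± 0.20, -1.44 and -1.34. The difference between the changes of Ldha and Ldhb was not tested.

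Of the steps with a single main gene, 3 fell in each genotype and 1 was not called. Tpi1, triosephosphate isomerase, changed by -1.25 ± 0.16 in control, -1.53 in emerin KO and -1.45 in lamin A/C KO, and Pkm, pyruvate kinase, by -0.94 ± 0.23, -0.85 and -0.89. The emerin KO call of Pkm was lost without emerin KO day 0 replicate 1 (-0.60, adjusted p = 0.063) and when the fit held just the compared groups (adjusted p = 0.076). Gapdh, often used as a constant reference, changed by -0.95 ± 0.19, -1.68 and -1.18. Its control signals were 26414 and 25922 on day 0 and 12555 and 14626 on day 3. With quantile normalization the control change lost its call: it was -0.47 on day 3, with an adjusted p of 0.078, and -0.34 on day 4, with 0.20. Pgk1, phosphoglycerate kinase, did not pass: its brightest probe set changed by -0.74 ± 0.37 in control, -0.11 ± 0.34 in emerin KO and -0.74 ± 0.30 in lamin A/C KO. Its other probe sets gave -0.98 and -1.09 in control, and the mean of its probe sets passed in control (-0.94, adjusted p = 0.0039), emerin KO (-0.61, adjusted p = 0.026) and lamin A/C KO (-0.87, adjusted p = 0.00097).

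The glycogen genes held the largest falls of the 34. Phosphorylase kinase, which switches glycogen phosphorylase on, is built of several subunits, and 3 of its genes fell in each genotype. Phkg1, the muscle catalytic subunit, read 1765 and 2508 in control on day 0 and 56.8 and 124 on day 3, a change of -4.18 ± 0.33. The added 32 understates this fall, since later signals lie near or below the minimum of 100. Phka1, the muscle regulatory subunit, changed by -3.58 ± 0.33 (4470 and 4403 to 278 and 418), and Phkb, the subunit shared by tissues, by -3.17 ± 0.27 (3294 and 2879 to 266 and 367). In emerin KO they changed by -4.53, -4.29 and -3.85, and in lamin A/C KO by -4.33, -3.54 and -2.83.

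Phosphorylase itself showed the split of muscle and general forms. Pygm, the muscle form, whose loss causes McArdle disease in people, read 17268 and 15999 on day 0 in control and 1329 and 3196 on day 3. The change was -2.99 ± 0.31, -3.90 ± 0.28 in emerin KO and -3.79 ± 0.25 in lamin A/C KO. Pygb, the brain form, rose from 331 and 310 to 736 and 639 in control (1.03 ± 0.17), and by 0.90 and 0.73 in the knockouts. Pygl, the liver form, rose by 1.30 ± 0.34 in control, by 1.39 in emerin KO and by 0.87 in lamin A/C KO. Leaving out control day 0 replicate 1 (0.95, adjusted p = 0.091) or control day 3 replicate 2 (1.10, adjusted p = 0.056) ended the Pygl call in control. Leaving out lamin A/C KO day 0 replicate 1 (0.73, adjusted p = 0.067) or replicate 2 (0.71, adjusted p = 0.071) ended it in lamin A/C KO, and the Gapdh ratio as a covariate ended it in emerin KO (1.52, adjusted p = 0.0501).

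Synthesis genes fell as well. Gys1, muscle glycogen synthase, changed by -1.15 ± 0.21 in control, -1.59 in emerin KO and -1.34 in lamin A/C KO. Gbe1, the branching enzyme, changed by -1.37 ± 0.34, -1.92 and -2.26, and Ugp2, which makes UDP-glucose, by -2.09 ± 0.20, -3.23 and -2.15. Ppp1r3c, a subunit that brings protein phosphatase to glycogen, went from 10085 and 5116 to 601 and 1184 in control, a change of -3.04 ± 0.38, with -3.08 and -3.87 in the knockouts. Pgm1, the main muscle phosphoglucomutase, changed by -2.21 ± 0.21, -3.02 and -2.90.

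Pgm2 went the other way in control and lamin A/C KO muscle. This related gene, known for its action on phosphopentoses, read 168 and 202 in control on day 0, 339 and 373 on day 3, and 384 and 371 on day 4. It rose by 0.84 ± 0.28 in control (adjusted p = 0.022) and by 0.79 ± 0.23 in lamin A/C KO, while the emerin KO change of -0.48 ± 0.25 did not pass (adjusted p = 0.13). The control call was lost without control day 0 replicate 1 (0.73, adjusted p = 0.14) or without either control array of day 3 (0.78 and 0.90, adjusted p 0.11 and 0.063). The lamin A/C KO call was lost without lamin A/C KO day 0 replicate 1 (0.59, adjusted p = 0.059), and the emerin KO change passed without emerin KO day 0 replicate 1 (-0.88, adjusted p = 0.021). The difference between the emerin KO and control responses, -1.32 ± 0.38, did not pass (adjusted p = 0.063), and it passed without that emerin KO array (-1.72, adjusted p = 0.017).

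Between days 3 and 4 a few muscle genes were called higher in the knockouts. Control had 2 arrays on each of these days and the knockouts 3, and whether this change differed between genotypes was not tested. In control 0 of 34 genes passed, where 0.0448% of all genes did. At an unadjusted p under 0.05 in limma, 5 of the 34 passed, beside 531 of the 11165 genes tested. The median was 0.19 in control, 0.15 in emerin KO and 0.27 in lamin A/C KO. Of the 6 muscle forms of glycolytic genes, 6 had a positive change in control, 5 in emerin KO and 3 in lamin A/C KO. In emerin KO Stbd1, Pgam2 and Pfkm rose, 3 of 34 against 1.17% of all genes. In lamin A/C KO Pygm, Pgam2, Stbd1, Pgm1 and Eno3 rose, 5 of 34 against 2.04%. No member was called lower in any genotype. Of the 12 genes of mature fast fibers, 0 were called higher in control, 3 in emerin KO and 2 in lamin A/C KO over the same day. The part of the fibers in the members' rise was not tested.

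Pgam2 and Stbd1 rose from day 3 to day 4 in both knockouts. For Pgam2 in emerin KO, the signals went from 1817, 2390 and 1845 on day 3 to 5170, 4321 and 4905 on day 4, by 1.24 ± 0.17 (adjusted p = 0.00014). In lamin A/C KO they went from 2114, 2373 and 2019 to 5029, 5298 and 3698, by 1.08 ± 0.17 (adjusted p = 0.0012). The control rise of 0.71 ± 0.20 did not pass (adjusted p = 0.45), and it passed without control day 3 replicate 2 (1.09, adjusted p = 0.045). Every day 4 array stood above every day 3 array of its genotype, and below every day 0 array.

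Stbd1 encodes a glycogen-binding protein linked to the movement of glycogen to lysosomes. In control it read 1105 and 943 on day 0, 893 and 1100 on day 3, and 1146 and 1098 on day 4, and no change passed. In lamin A/C KO it read 1343, 1271 and 1566 on day 0, 687, 724 and 515 on day 3, and 1364, 1482 and 1061 on day 4. It fell by 1.09 on the log2 scale to day 3 and rose by 0.99 ± 0.16 to day 4 (adjusted p = 0.0022). In emerin KO it read 447 and 495 on day 0, 254, 293 and 251 on day 3, and 824, 1147 and 826 on day 4, a change of -0.76 ± 0.18 followed by a rise of 1.68 ± 0.16 (adjusted p = 2.3e-06). With the Gapdh ratio as a covariate the emerin KO change to day 3 was -0.33 and did not pass (adjusted p = 0.48). The day 3 arrays of the knockouts lie below all others of their genotype, and those of control overlap the other days. The day 3 response differed from that of control by -0.72 ± 0.27 in emerin KO (adjusted p = 0.16) and -1.05 ± 0.26 in lamin A/C KO (adjusted p = 0.17), and neither passed.

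The remaining calls of that day were in 1 knockout each. Pfkm in emerin KO rose by 0.77 ± 0.15 (adjusted p = 0.0084), and the call was lost with median scaling (0.78, adjusted p = 0.10) and when the fit held just the compared groups (adjusted p = 0.065). In lamin A/C KO Pygm rose by 1.17 ± 0.25 (adjusted p = 0.015), from 1007, 1170 and 1243 to 2648, 3076 and 2139, Pgm1 by 0.74 ± 0.18 and Eno3 by 0.70 ± 0.15. Adding the Gapdh ratio to the model left 2 of these 5 lamin A/C KO calls. Leaving out lamin A/C KO day 4 replicate 2 ended the calls of Pygm (1.05, adjusted p = 0.096), Pgm1 (0.62, adjusted p = 0.18) and Eno3 (0.62, adjusted p = 0.089). Each of these 3 calls also ended without replicate 1 or replicate 3 of lamin A/C KO day 3, and those of Pygm and Pgm1 without replicate 1 of day 4.

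**Figure D3:**
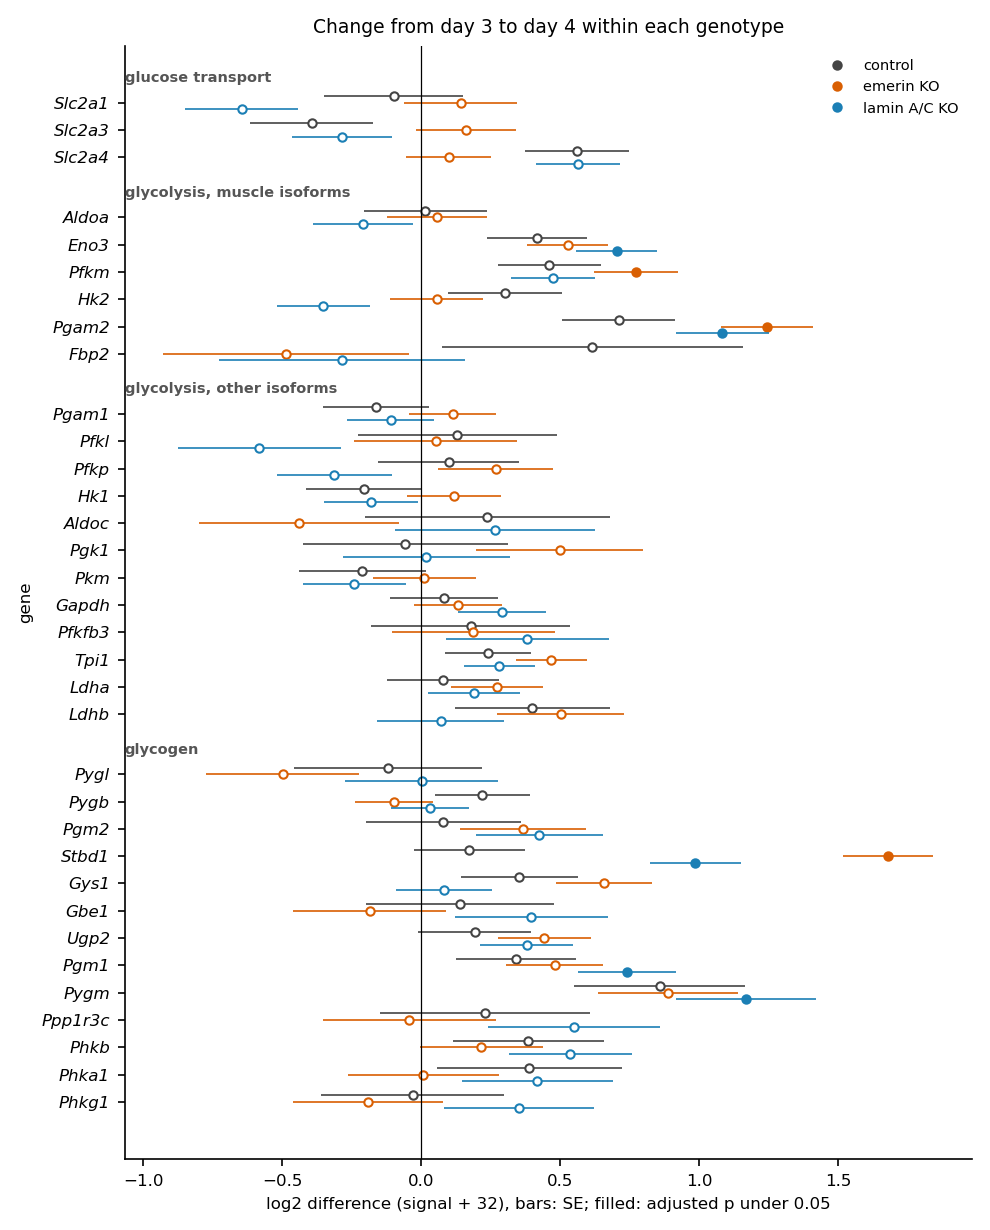
Change from day 3 to day 4 of the 34 genes in each genotype, as a log2 difference of signal + 32, with bars of 1 SE and filled points where the adjusted p was under 0.05. The filled points all lie right of 0, from 0.70 (Eno3, lamin A/C KO) to 1.68 (Stbd1, emerin KO), and no control point is filled.

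On day 0 emerin KO muscle differed from control in 3 of 34 genes, where 3.26% of all genes tested differed. Pfkfb3 makes fructose 2,6-bisphosphate, the activator of phosphofructokinase. It read 2234 and 1516 in emerin KO, 301 and 815 in control and 618, 466 and 863 in lamin A/C KO, and the difference from control was 1.82 ± 0.36 (adjusted p = 0.0046). Its other probe set gave 0.91 ± 0.26, and without control day 0 replicate 1 the difference was 1.15 (adjusted p = 0.16). Stbd1 was lower by -1.07 ± 0.20 (adjusted p = 0.0030), and -0.96 without the same array (adjusted p = 0.060). Slc2a3 was higher by 0.88 ± 0.22 (adjusted p = 0.028), and leaving out any of the 4 arrays ended that call. The largest adjusted p of the Slc2a3 difference without an array was 0.18, and none of the 3 passed when the fit held just the 4 arrays compared.

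Pfkfb3 then converged. Its signal was 146 to 179 in emerin KO, 177 and 244 in control and 118 to 205 in lamin A/C KO on day 3. The fall in emerin KO, -3.27 ± 0.33 on day 3 and -3.08 ± 0.33 on day 4, exceeded that in control, -1.14 ± 0.36 and -0.97 ± 0.36. The difference of the day 3 responses was -2.13 ± 0.49 (adjusted p = 0.023), and that of the day 4 responses -2.12 ± 0.49 (adjusted p = 0.0499). Emerin KO minus control was -0.31 ± 0.33 on day 3 and -0.30 ± 0.33 on day 4, and neither passed. Without control day 0 replicate 1 the differences of the responses were -1.45 (adjusted p = 0.14) and -1.44 (adjusted p = 0.24). Without control day 0 replicate 2 the control change did not pass, at -0.47 to day 3 (adjusted p = 0.41) and -0.29 to day 4 (adjusted p = 0.65).

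On day 3 emerin KO muscle was lower than control in 8 of 34 genes and higher in none, where 16.3% of all genes differed in either direction. The 8 were Stbd1, Ugp2, Pgm2, Pgam1, Pgam2, Pgm1, Gapdh and Eno3. These are 4 glycogen genes and 4 of glycolysis, and Gapdh is itself the RNA quality control. In the same comparison 3 of 12 mature fiber genes were lower and 1 was higher, 5 of 7 genes of regenerating fibers were lower and 1 was higher, and the Gapdh 3'/5' ratio was 3.62 to 6.09 in emerin KO and 0.957 to 0.976 in control. With that ratio as a covariate none of the 8 passed. The ratio did not overlap between these groups, so that fit cannot cleanly separate ratio from genotype. It gave -0.90 for Pgam2, -0.70 for Pgm1, -0.52 for Pgm2, -0.49 for Pgam1 and -0.44 for Eno3, and the values of Stbd1, Ugp2 and Gapdh are given below. Without control day 3 replicate 2 the calls of this comparison numbered 2.

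Stbd1 gave the largest of these differences, -1.78 ± 0.18 (adjusted p = 2.4e-06), with 254, 293 and 251 in emerin KO against 893 and 1100 in control. With the ratio as a covariate it was -1.32 (adjusted p = 0.11). Ugp2 read 962, 1067 and 1019 in emerin KO and 2076 and 2638 in control, a difference of -1.18 ± 0.19 (adjusted p = 0.00023). Its 4 other probe sets gave -0.53, -0.14, -0.51 and -0.27, and the covariate left -0.40 (adjusted p = 0.79). Neither gene's arrays overlapped between the genotypes.

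Pgm2 read 185, 151 and 167 in emerin KO and 339 and 373 in control, a difference of -0.96 ± 0.25 (adjusted p = 0.012) that did not pass without either control array (adjusted p 0.059 and 0.11). Pgam1 differed by -0.71 ± 0.17 (adjusted p = 0.0071), with 1448, 1408 and 980 against 2055 and 2115, and Pgam2 by -0.66 ± 0.19 (adjusted p = 0.018). Without control day 3 replicate 2 they were -0.69 (adjusted p = 0.068) and -0.28 (adjusted p = 0.48). Pgm1 differed by -0.64 ± 0.20 and Eno3 by -0.50 ± 0.16, and without that array they were -0.22 (adjusted p = 0.61) and -0.20 (adjusted p = 0.60).

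Gapdh differed by -0.55 ± 0.18 (adjusted p = 0.038) at its middle probe set, by -2.17 ± 0.30 at its 5' set and by 0.10 ± 0.16 at its 3' set. The call was therefore not shared by its 3 probe sets. With the ratio as a covariate the difference was -0.01, but the ratio is made from the 3' and 5' sets of Gapdh itself, so that fit cannot test the Gapdh difference. Gys1 differed by 0.06 ± 0.19 at its brightest probe set and by -0.76 with the mean of its probe sets (adjusted p = 0.027).

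**Figure D4:**
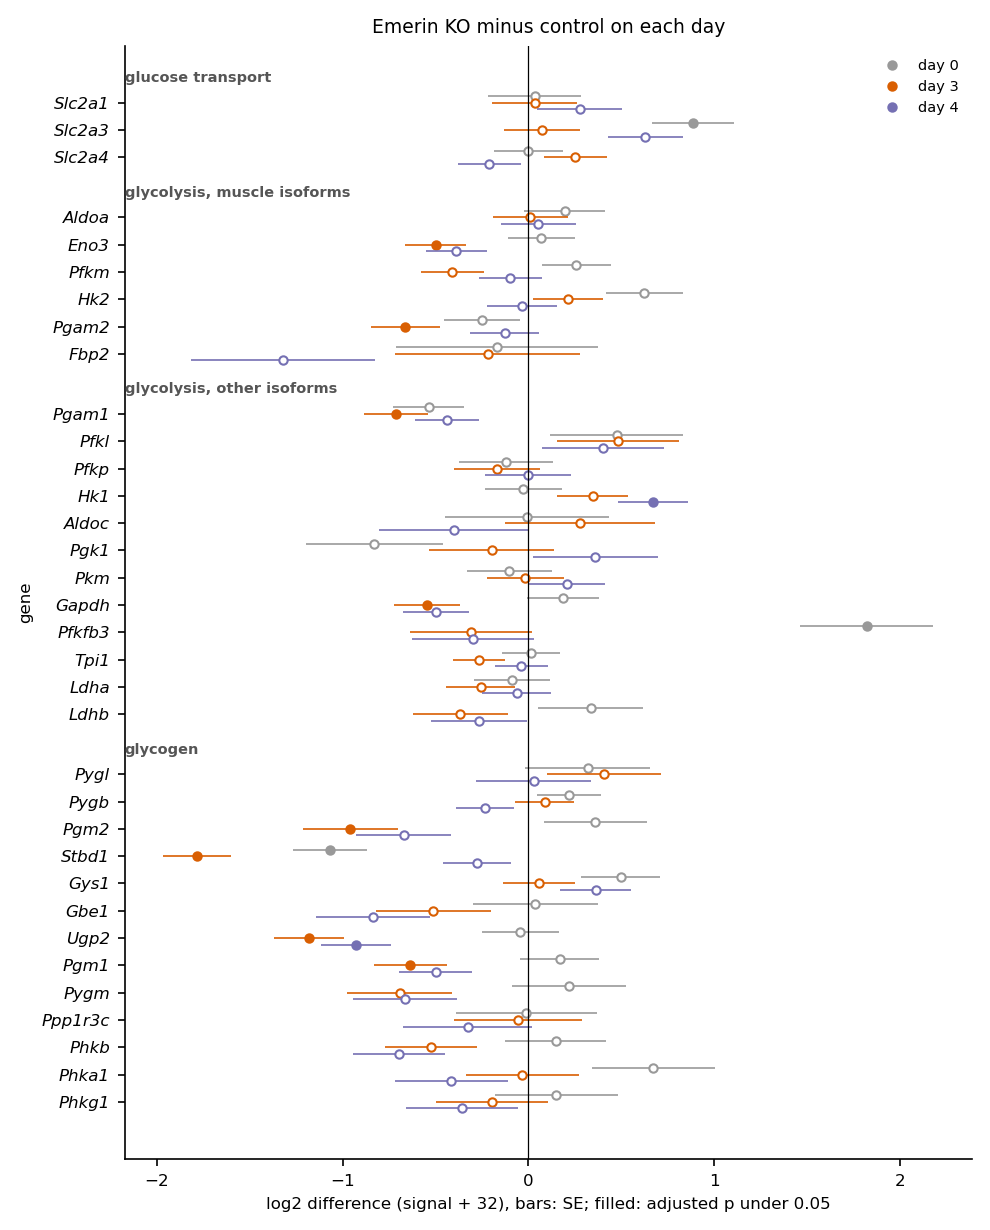
Emerin KO minus control for the 34 genes on days 0, 3 and 4, as a log2 difference of signal + 32, with bars of 1 SE and filled points where the adjusted p was under 0.05. Pfkfb3 stands at 1.82 on day 0, and Stbd1 at -1.78 and Ugp2 at -1.18 on day 3.

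On day 4 emerin KO differed from control in 2 of 34 genes, against 5.88% of all genes. Ugp2 was lower by -0.93 ± 0.19 (adjusted p = 0.0055), with 1178, 2054 and 1112 against 2720 and 2636, and its 4 other probe sets gave -0.44 to -0.74. Without the arrays of a Gapdh ratio above 2.5, only replicate 2 (2054) was left of the emerin KO arrays of day 4, and the Ugp2 difference was -0.38. Without control day 4 replicate 1, which leaves only replicate 2 of that group, it was -0.91. Hk1 was higher by 0.67 ± 0.19 (adjusted p = 0.040), with 1597, 1333 and 1752 against 1169 and 792, but its other probe set gave -0.57 ± 0.24. Without control day 4 replicate 2 the Hk1 difference was 0.40 (adjusted p = 0.40).

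**Figure D5:**
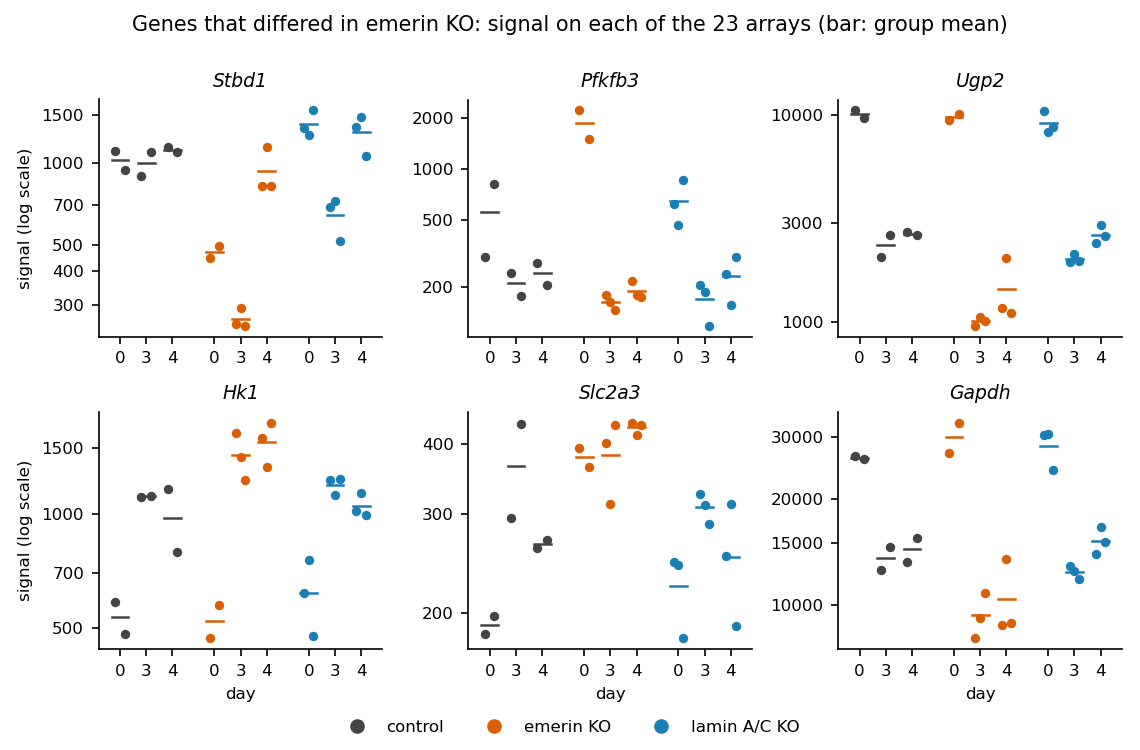
Signal (log axis) of 6 genes that differed between emerin KO and control on at least 1 day, on each of the 23 arrays, with a bar at the group mean. Stbd1 lies at 251 to 293 on the emerin KO arrays of day 3 and at 893 and 1100 on the control arrays, and Pfkfb3 at 1516 and 2234 on the emerin KO arrays of day 0.

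The change from day 0 differed between emerin KO and control for 2 genes on day 3, Pfkfb3 and Ugp2, and for 1 on day 4, Pfkfb3, where 2.62% and 0.573% of all genes differed. The Ugp2 response differed by -1.14 ± 0.28 (adjusted p = 0.032), by -0.59 (adjusted p = 0.16) with the mean of its probe sets and by -0.46 (adjusted p = 0.68) with the Gapdh ratio as a covariate. On day 0 its signal of 9456 and 10131 in emerin KO lay among the 9667 and 10520 of control.

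Lamin A/C KO muscle differed from control in 0 of 34 genes on day 0, day 3 and day 4, where 0.896%, 0.0269% and 0.0448% of all genes differed. At an unadjusted p under 0.05 in limma, 2, 7 and 4 of the 34 differed, beside 1152, 809 and 540 of the 11165 genes tested. The responses on days 3 and 4 also differed for 0 of the 34 genes, against 0.17% and 0.206%. Unadjusted, they differed for 2 and 4 of the 34, beside 716 and 866 of the 11165. The lowest member difference was Pygm on day 3, at -0.84 ± 0.28 (adjusted p = 0.48), with 1007 to 1243 in lamin A/C KO and 1329 and 3196 in control. Stbd1 differed by -0.62 ± 0.18 on that day (adjusted p = 0.43), and Hk2 by -0.76 ± 0.19 on day 4 (adjusted p = 0.43), with 630 to 664 against 994 and 1275. A p over the threshold does not show that the genotypes were alike.

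Around the members, 46 of 64 further genes of glucose and glycogen metabolism could be tested. In control on day 3, 18 fell and 6 rose, with a median of -0.31, where 14.2% of all genes fell and 20.1% rose. The share that fell was above that of all genes, and the share that rose was below it. The largest falls were in Pdk2 (-2.92 ± 0.19), a kinase that turns pyruvate dehydrogenase off, Gpd1 (-2.80 ± 0.28), which passes electrons to glycerol phosphate, and Got1 (-2.78 ± 0.24) of the malate shuttle. The largest rises were in Pdk3 (2.99 ± 0.33), another such kinase, Pgd (2.17 ± 0.25), of the pentose phosphate branch, and Pck2 (1.80 ± 0.22), mitochondrial phosphoenolpyruvate carboxykinase. By role, 9 of 11 genes of lactate and pyruvate handling and 4 of 4 of the shuttles fell in each genotype.

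The pentose phosphate branch takes glucose 6-phosphate away from glycolysis. Of its 7 genes, 2 rose in control on day 3, 4 in emerin KO and 5 in lamin A/C KO, where 20.1%, 23.9% and 23.4% of all genes rose, and 1 fell in each. In emerin KO Pgd rose by 3.72 ± 0.22, Pck2 by 3.36 ± 0.20 and Tkt, transketolase, by 3.06 ± 0.23. Against control on day 3, emerin KO was lower in 7 of the 46 genes and higher in 3, where 16.3% of all genes differed and the Gapdh 3'/5' ratio was 3.62 to 6.09 against 0.957 to 0.976. The part of that ratio in these differences was not tested. The lowest were Mpc1 (-2.19 ± 0.34), a subunit of the mitochondrial pyruvate carrier, Gyg (-1.86 ± 0.31), which primes glycogen, and Pdk3 (-1.34 ± 0.30). Pgd was higher by 1.25 ± 0.22, Tkt by 0.78 ± 0.23 and Gpd2 by 0.55 ± 0.16. On day 0 Pck2 was lower in emerin KO by -1.58 ± 0.22, and on day 4 Mpc1 (-1.67) and Gyg (-1.57) were lower and Pgd (0.76) and H6pd (0.58) higher. Lamin A/C KO differed from control in 0 of the 46 on any day.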

How the data were processed

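RNA of mouse gastrocnemius was measured on 23 Affymetrix arrays in 9 groups taken from the titles and descriptions. The authors deposited an intensity for each probe set, the MAS5 signal per the submitters' processing notes (its version is not given there). The trimmed mean (2% off each end) lay at 150.04 to 150.059 on all arrays. Signals were multiplied to bring that mean to 500, and the model used log2(signal + 32). There were 22690 probe sets, of which 20393 had 1 gene symbol, 691 had several and 1606 were not listed. The brightest probe set stood for each gene, and a gene was tested if 2 or more arrays reached a signal of 100, which left 11165 genes. Gapdh is read only by Affymetrix control probe sets. Probe sets with _x_at or _s_at endings (Aldoa, Tpi1, Pgk1, Phkg1, Slc2a3) can share signal with related sequences.

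One limma model (3.58.1, R 4.3.3, trend=TRUE) covered all 9 groups with 14 residual degrees of freedom, and gave 19 comparisons. P-values are two-sided and adjusted by Benjamini-Hochberg over all genes within a comparison, and a gene was called at an adjusted p under 0.05. Errors are standard errors of the model. The fit was checked on simulated data. Every member is named; where over 10 were called, those with the largest changes per role and the isoform families are described in full. Array names in the text are group and replicate number. Alternatives covered the scaling, the added constant, the filter, the probe set rule, the model and each array left out. The members and lists were chosen with earlier results of these data known. Plots used matplotlib 3.10.9 under Python 3.11.15.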

Additional observations from a re-analysis of the deposited data

Results flagged for a closer look

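The change from day 0 differed between emerin KO and control by a test of the difference itself (limma, adjusted p under 0.05) for a pair of genes. Pfkfb3 differed by -2.13 on day 3 and by -2.12 on day 4, and its emerin KO signal on day 0 was 2234 and 1516 beside 301 and 815 in control. Ugp2 differed by -1.14 on day 3, and 3 of 3 emerin KO arrays of that day lay below both control arrays. Emerin KO minus control for Pfkfb3 was 1.82 on day 0, -0.31 on day 3 and -0.30 on day 4. Without control day 0 replicate 1, which leaves 1 array in that group, its response differences were -1.45 and -1.44. The Gapdh 3'/5' ratio of emerin KO was 0.914 to 1.34 on day 0, 3.62 to 6.09 on day 3 and 1.40 to 5.30 on day 4. In control it was 0.829 to 0.949 on day 0. The fit with the ratio as a covariate gave -1.92 (adjusted p = 0.31) and -2.01 (adjusted p = 0.15) for Pfkfb3 and -0.46 (adjusted p = 0.68) for Ugp2. That fit cannot cleanly separate the ratio from genotype and day, and the part of the ratio was not tested further. No group held 4 arrays, so no array was tested as an outlier.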

How the results depend on the processing

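Of the gene-level results under other processing, 6857 kept their side of the threshold, 84 lost and 28 gained a call, and 1 was called with the opposite sign. That was Gys1 in emerin KO minus control on day 3, which gave -0.76 with the mean of all probe sets. The 6857 can include small differences that were not called and changed sign. The count of members called moved by over 1.5 times in these cases. With median scaling it was 3 from day 3 to day 4 in lamin A/C KO (5 as reported), 3 in emerin KO minus control on day 3 (8) and 1 on day 4 (2), and 0 for the emerin KO response on day 3 (2) and on day 4 (1). Without an intensity trend those emerin KO counts were 5, 1, 1 and 0. When the fit held just the groups compared they were 3, 0, 0 and 0, and emerin KO minus control on day 0 was 0 (3 as reported). With the Gapdh ratio as a covariate they were 0, 0, 0 and 0, and the lamin A/C KO change from day 3 to day 4 gave 2. Leaving out the arrays of a Gapdh ratio above 2.5 left no emerin KO array of day 3 and only replicate 2 of day 4. Emerin KO counts from that fit are therefore not given. The emerin KO response on day 4 also gave 0 with quantile normalization, with a constant of 1 and without a filter. With the replicate number as a block it gave 0 (Pfkfb3, -2.14, adjusted p = 0.058) and no other count moved that far. Deviations from the group means correlated over 0.1 in 26 of 82 pairs of same-numbered arrays (median 0.02). Among pairs of differently numbered arrays this held for a smaller share, 28 of 152 (median -0.02). The labels name no pairing, so the numbers were not read as one. Leaving out 1 array gave 27 to 30 called members for control on day 3 and 26 to 27 on day 4, 30 to 30 and 28 to 30 for emerin KO, and 29 to 32 and 28 to 29 for lamin A/C KO. From day 3 to day 4 it gave 0 to 1, 3 to 4 and 2 to 5, in that order. For emerin KO minus control it gave 0 to 2 on day 0, 2 to 11 on day 3 and 0 to 5 on day 4, and for the emerin KO response 0 to 4 and 0 to 2. In other cases the cause was not tested. Median scaling moved the median of all genes from 0.085 to -0.02 in control on day 3, and the emerin KO response on day 3 from 158 higher and 135 lower genes to 109 and 30. Signals near or under 100 limit the low values of Phkg1, Fbp2 and Gbe1.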
